A study of Homo sapiens with 12 samples.

Results

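The genes of MYC and of ribosome biogenesis form a set of 40 named genes, of which 35 were measured here by a probe set that names 1 gene, among 19775 genes measured that way. For each gene the probe set with the highest mean log2 signal over the 12 arrays was used, and all 35 passed the filter on low signal that kept 11548 genes for testing. The other 5, GNL3, NOP56, DKC1, BOP1 and DDX18, had no probe set of their own in the annotation used, so their levels were not analysed here. The 35 were MYC and its partner MAX (2 genes), nucleolar scaffold and chaperone proteins (5), proteins of the box C/D (2) and box H/ACA (2) small nucleolar ribonucleoproteins, RNA polymerase I subunits and regulators (4), assembly factors of the small (11) and large (7) ribosomal subunit, and 2 metabolic enzymes, ODC1 and CAD.

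RNA came from the established cell lines Z-138 and Maver-1, both grown from mantle cell lymphoma (a tumour of B cells). The labels give a nonsense change in TRAF2 for Z-138 and a deletion of TRAF3 for Maver-1, so no line without such a change was compared. Each line carried 1 of 3 doxycycline-inducible hairpins under puromycin selection, a non-targeting control (NTC) or one of a pair against MAP3K14 (NIKsh#1 and NIKsh#2), the gene of the kinase NIK, which starts the alternative NF-kB pathway and which TRAF2 and TRAF3 hold down. Doxycycline was given at 0 or 100 ng/ml over 7 days, and each of the 6 cultures thus has a pair of arrays. The 12 arrays fall into 8 groups by line, knockdown and doxycycline, with 1 array in each NTC group and 2 in each NIKsh group, and nothing in the labels says that cultures were repeated.

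MYC is a transcription factor that binds DNA as a dimer with MAX, most tightly at the E-box CACGTG. Ribosome biogenesis is among its best known outputs. RNA polymerase I makes the ribosomal RNA precursor in the nucleolus, small nucleolar ribonucleoproteins modify it, and separate sets of assembly factors fold and cut it into the small and large subunits. In B cell tumours this program goes with growth, and NF-kB is one of the inputs that can reach the MYC gene.

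The 5 B cell markers measured were above the filter in both lines, with MS4A1, which encodes CD20, between 2767 and 4006. CCND1 and SOX11, defining genes of mantle cell lymphoma, were measured on all arrays, while CD5 was between 0.5 and 1.6 in Z-138. Summed over 7 genes, T and NK cell markers reached 87.2 to 214.7 in Z-138 and 16.7 to 31.7 in Maver-1. CD3G alone had 56.6 to 177.5 in Z-138, where CD3D, CD3E, CD2, CD8A and GNLY were under the filter. Those of fibroblasts, epithelium and endothelium, 9 genes, summed to 211.1 to 667.5 and 907 to 1240, with 5 of 9 over the filter in Maver-1. Most of the Maver-1 sum was PECAM1 (549.7 to 929.1) and EPCAM (173.0 to 314.4). ACTB probe sets at both ends of the transcript give a 3′ over 5′ ratio that grows as RNA is degraded or copied short, and it ran from 2.33 to 6.88, and the array of Z-138 NTC with doxycycline stood apart within its line at 6.34. Every value below is the signal intensity of 1 array or a log2 difference of signal + 3. Since the arrays had been scaled to 1 common mean, a change in total RNA per cell is not seen, and fewer cells of a kind cannot be told apart from less RNA per cell.

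The promoters of these genes were searched for the E-box first, because it is the site that MYC with MAX binds most tightly. RefSeq promoter windows on GRCh38.p14, from 250 bases before to 50 after a transcription start, were at hand for 33 of the 40 genes. CACGTG, which reads the same on both strands and was the only motif searched, occurred in 16 of those 33 (48.5%). The same window held it in 13.01% of 9472 tested genes and in 8.78% of 27305 genes with a window. These are shares of genes, some with several windows. Per window the shares were 39.0% of 41, 9.62% of 13763 and 7.26% of 35116.

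**Figure D1:**
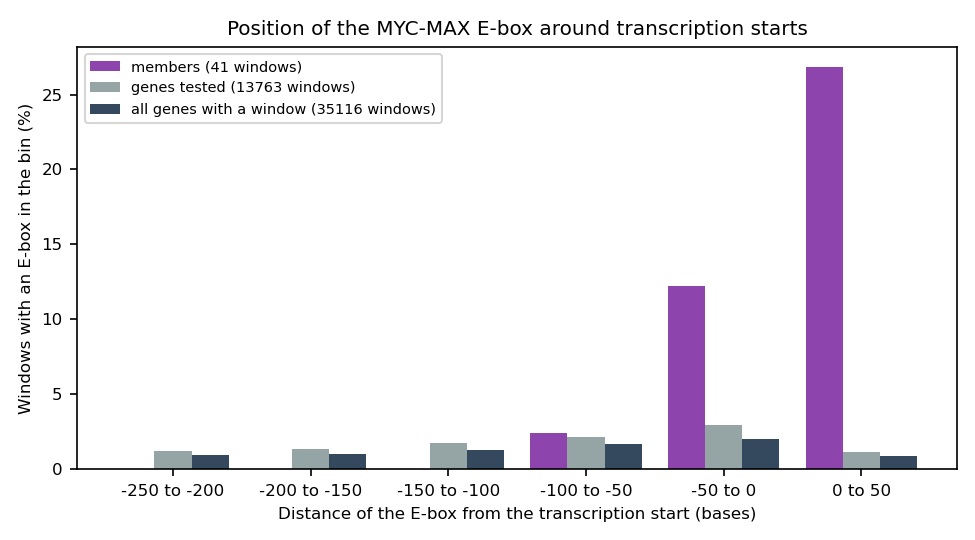
Percentage of promoter windows with an E-box whose first base lies in each 50-base bin of distance from the transcription start, for the members (41 windows), the genes tested (13763) and all genes with a window (35116). In the members the bars rise to 12.2% just before the start and 26.8% just after it, where the genes tested had 2.95% and 1.16%.

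The E-boxes of the members lay close to the start. Of 17 sites, 16 began no more than 50 bases upstream and 11 began after the start, in the first transcribed bases. Among all tested genes the bin with most sites was that just upstream, with 2.95% of windows, and the bin just downstream held 1.16%. A match describes letters in a window, and binding was not measured here. The sites of the 6 members that differed between the lines and held an E-box are shown with 12 bases on each side, 5′ to 3′ on the gene's strand, with the E-box in capitals. RCL1, MYBBP1A, RRP9 and UTP20 were higher in Z-138, and PES1 and BYSL were lower.
RCL1 (chr9:4792936-4792965, plus strand): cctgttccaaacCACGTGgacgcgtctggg
MYBBP1A (chr17:4555340-4555369, minus strand): ggggccggagcaCACGTGtttcgtgtttcg
RRP9 (chr3:51941892-51941921, minus strand): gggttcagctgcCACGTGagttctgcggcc
UTP20 (chr12:101280083-101280112, plus strand): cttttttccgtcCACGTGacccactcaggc
PES1 (chr22:30591880-30591909, minus strand): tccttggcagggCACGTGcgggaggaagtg
BYSL (chr6:41921515-41921544, plus strand): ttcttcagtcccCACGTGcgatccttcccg

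ODC1, which makes polyamine precursors, was the member with a pair of E-boxes in 1 window, and both are printed because it is a textbook MYC target. The first begins 29 bases before the start and the second 6 bases after it.
ODC1 upstream site (chr2:10448024-10448053, minus strand): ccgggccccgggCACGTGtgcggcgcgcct
ODC1 downstream site (chr2:10447990-10448019, minus strand): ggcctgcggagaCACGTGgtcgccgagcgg

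Of the measured members with a window, 6 of 11 that differed between the lines held the motif, as did 9 of 19 that did not. MYC, RRS1, BOP1, NOP58, NOLC1, RRP12 and DDX18 had no window in the table used.

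The first comparison asked how the members differed between the lines before doxycycline. In the 3 untreated Z-138 arrays against the 3 untreated Maver-1 arrays, 7 members were higher in Z-138 and 6 were lower. RCL1 (3.23-fold), TSR1 (1.80-fold) and MYBBP1A (1.61-fold) differed most among those higher in Z-138. POLR1A (1.78-fold), RRS1 (1.77-fold) and PES1 (1.63-fold) differed most among those lower by their brightest probe sets, and further probe sets of POLR1A gave the opposite sign. The 13 members that passed (limma, adjusted p under 0.05) were 37.1% of the 35, where 60.2% of all genes tested passed. The median difference of the members was 0.03, against -0.08 over all genes tested. The untreated groups did not overlap for 16 of 35 members (45.7%) and for 65.8% of all genes.

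Of 11 small subunit factors 4 were higher in Z-138 and 1 was lower, or 45.5%, against the 60.2% of all genes. RCL1, which takes part in the cleavage of the ribosomal RNA precursor and lies on chromosome 9 (4792944 to 4861066, GRCh38.p14), had untreated signals of 985 (NTC), 1007 (NIKsh#1) and 946 (NIKsh#2) in Z-138. In Maver-1 it had 366, 379 and 197 in the same order of cultures, used throughout. Every Z-138 array, treated or not, lay above every Maver-1 array, and the untreated difference was 1.69 ± 0.19 (limma model SE, adjusted p = 5.86e-06). Its next probe set (mean signal 556.5) gave 2.68.

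TSR1, a GTPase-like factor of small subunit maturation on chromosome 17 (2322396 to 2336457), had untreated signals of 637, 740 and 732 in Z-138. The Maver-1 signals were 444, 366 and 360.5. The lines did not overlap on any of the 12 arrays, and the untreated difference was 0.85 ± 0.11 (limma, adjusted p = 2.08e-05). The other 3 probe sets of TSR1 gave 0.66, 0.92 and 1.12. RRP9, a protein of the U3 small nucleolar ribonucleoprotein, differed by 0.47 ± 0.14 (limma, adjusted p = 0.0096), with Z-138 at 178.8 ± 11.1 and Maver-1 at 128.7 ± 15.4 (SD, n = 3 each). UTP20, of the small subunit processome, differed by 0.44 ± 0.13 (limma, adjusted p = 0.0113).

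BYSL was the small subunit factor lower in Z-138. It encodes bystin, needed for late steps of that subunit, and had 228, 295 and 296.5 in Z-138 against 374, 364 and 336 in Maver-1. The untreated groups did not overlap, and the difference was -0.40 ± 0.13 (limma, adjusted p = 0.0152). It no longer passed with the mean of both arrays of a culture (-0.165, adjusted p = 0.35), with median centring (-0.27, adjusted p = 0.064) or without Maver-1 NIKsh#1 (adjusted p = 0.054). PNO1, a factor bound to the maturing 3′ end of the small subunit RNA, kept all Z-138 arrays (1005 to 1147) below all Maver-1 arrays (1163 to 1278), with an untreated difference of -0.17 ± 0.07 that did not pass (limma, adjusted p = 0.056). The remaining 5 (WDR43, WDR75, UTP4, RRP12 and NOB1) had differences between -0.07 and 0.27.

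Of 7 large subunit factors 1 was higher in Z-138 and 3 were lower, or 57.1%, against the same 60.2%, and the split was not tested against that of the small subunit factors. RRS1, which brings the 5S particle into the large subunit, had 812, 661 and 637.5 in untreated Z-138. In Maver-1 it had 1307, 1215 and 1210.1, above every untreated Z-138 value, a difference of -0.83 ± 0.10 (limma, adjusted p = 8.75e-06). PES1 and WDR12, which with the unmeasured BOP1 form the complex needed to process the large subunit RNA, were both lower in Z-138. PES1 had 312, 284 and 279 against 563.5, 459 and 419.7, a difference of -0.705 ± 0.12 (limma, adjusted p = 0.00025). Its only further probe set has a mean signal of 3.12, below the filter, and the mean of both gave -0.17 (adjusted p = 0.50). WDR12 had 753.3 ± 36.5 against 930.2 ± 51.0 (SD, n = 3 each), a difference of -0.30 ± 0.08 (limma, adjusted p = 0.0072) that no longer passed with the mean of its probe sets (-0.19, adjusted p = 0.13) or with median centring (-0.18, adjusted p = 0.077). GRWD1, a histone-binding factor of the nucleolus, was higher in Z-138 (592.5 ± 136.4 against 402.3 ± 14.9, difference 0.53 ± 0.14, limma, adjusted p = 0.0056). It went to 0.175 (limma, adjusted p = 0.33) with the mean of both arrays of a culture. NOP2, NOP16 and NIP7, the last a factor of large subunit RNA processing, did not pass. The other probe set of NIP7, with a mean signal of 933 against 1108, gave -0.89, and the mean of both gave -0.48 (limma, adjusted p = 0.00018).

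In the RNA polymerase I group 1 of 4 genes was higher in Z-138 and 1 lower, or 50%, against the 60.2% of all genes. POLR1A, the largest subunit of the enzyme, had 204, 261 and 237 in untreated Z-138. The Maver-1 values were 487, 418 and 356, with no overlap, and the difference was -0.83 ± 0.14 (limma, adjusted p = 0.00016). Its other probe sets, with mean signals of 100.5 and 81.5, gave 0.21 and 0.17, so the direction for POLR1A rests on 1 of 3 probe sets. POLR1A no longer passed with the mean of its probe sets (-0.15, limma, adjusted p = 0.29). The mean of both arrays of a culture gave -0.34 and did not pass either (limma, adjusted p = 0.087). MYBBP1A, a nucleolar repressor of ribosomal RNA synthesis on chromosome 17 (4538904 to 4555384), had 984, 1331 and 1206 in Z-138 and 756, 761 and 655 in Maver-1. It did not overlap between the lines on any array and differed by 0.69 ± 0.11 (limma, adjusted p = 0.00013), and its other probe set gave 0.56. POLR1B, the next largest subunit, and the helicase DDX21 did not pass.

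MYC itself had 1977, 1680 and 1130.3 in untreated Z-138. The Maver-1 values were 1158, 1150.0 and 1239. The groups overlapped, since Z-138 NIKsh#2 lay below all 3 Maver-1 arrays, and the spread was 430 in Z-138 and 49 in Maver-1 (SD, n = 3 each). The difference of 0.39 ± 0.15 passed narrowly (limma, adjusted p = 0.0363). It no longer passed without Z-138 NTC (0.22, adjusted p = 0.156), without either NIKsh#1 culture, without Maver-1 NTC, or in 4 of the alternative fits. MAX differed by -0.10 ± 0.08 (limma, adjusted p = 0.27), a sign that turned to positive with median centring (0.03) and with the mean of its probe sets (0.44).

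The most abundant nucleolar proteins did not pass. NCL (nucleolin) and NPM1 (nucleophosmin), which carry and package ribosomal precursors, differed by 0.05 ± 0.08 and 0.03 ± 0.07 (limma, adjusted p = 0.60 and 0.73). The 95% intervals of these differences, -0.12 to 0.23 and -0.12 to 0.18, lie within a 1.5-fold change. NPM1 has near-identical copies in the genome, and its probe sets may read them too. PA2G4, a growth-regulated RNA-binding protein, was the 1 of 5 in this group that passed, or 20%, against the 60.2% of all genes. Its difference was -0.22 ± 0.06 (limma, adjusted p = 0.0091) and 0.17 by its other probe set. PA2G4 no longer passed with the mean of its probe sets (-0.025, limma, adjusted p = 0.78) or the mean of both arrays of a culture (-0.11, adjusted p = 0.19). It also did not pass with median centring (-0.095, limma, adjusted p = 0.26) or without the intensity trend (adjusted p = 0.060). The 4 measured small nucleolar ribonucleoprotein genes (FBL, NOP58, GAR1 and NHP2) and the enzymes ODC1 and CAD did not pass.

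**Figure D2:**
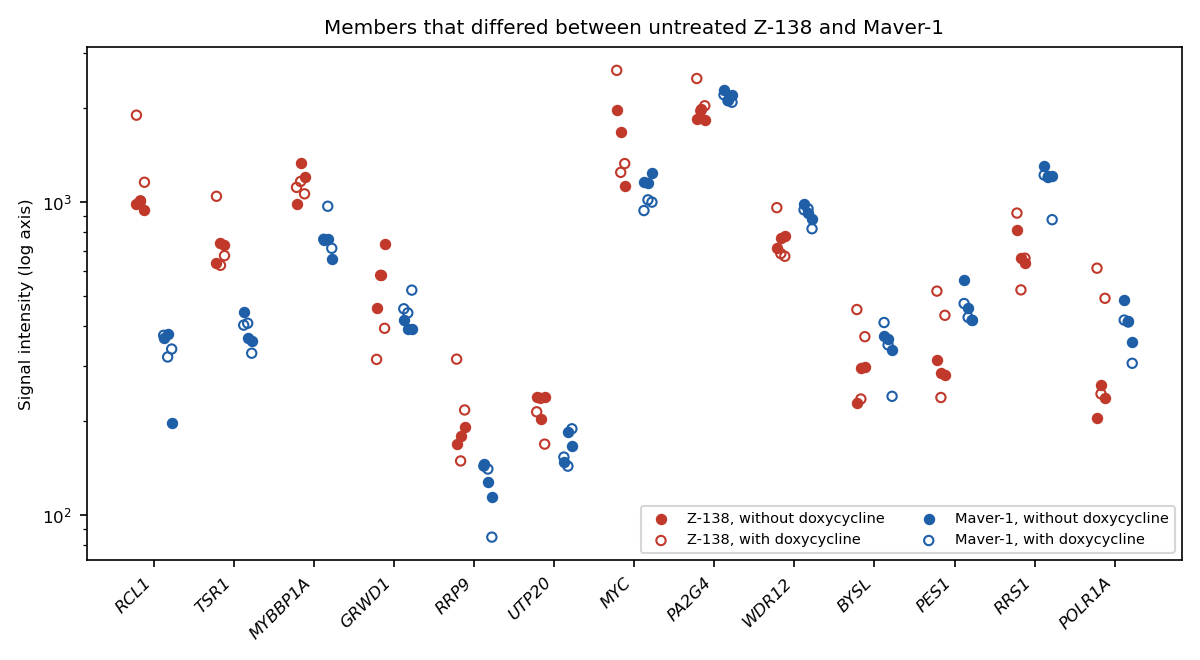
Signal intensity (log axis) of the 13 members that differed between the untreated lines, 1 point per array, for Z-138 (red) and Maver-1 (blue) without (filled) and with (open) doxycycline, ordered by the untreated difference. RCL1, TSR1, MYBBP1A and RRP9 are separated between lines on all arrays, while MYC overlaps, and the highest open red points of RCL1, TSR1 and POLR1A belong to Z-138 NTC.

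RNA quality moved with the line. The untreated ACTB ratio was 2.33, 2.86 and 2.92 in Z-138 and 6.88, 4.68 and 3.66 in Maver-1, without overlap. Because the ratio did not overlap between the lines, a fit with it as a covariate cannot separate line from RNA quality. Standard errors can grow there, as that of MYC did from 0.15 to 0.27. In that fit 10 members passed, 9 higher in Z-138 and 1 lower, and 6 of the 13 were among them. The share of all genes passing went to 34.6%. RCL1, TSR1, MYBBP1A, RRP9, GRWD1 and RRS1 passed there. MYC (0.12), POLR1A (-0.37), PES1 (-0.41), BYSL, WDR12, PA2G4 and UTP20 did not. When each array was instead centred on its median, all genes moved from a median of -0.08 to 0.04 and 11 members were higher in Z-138 and 3 lower. There 14 of 35 members passed (limma), where 60.1% of all genes did.

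The main question of the study was what changes when the NIK hairpins are induced. No member passed with doxycycline in the 4 NIKsh cultures (limma, 0 of 35, 0 at an unadjusted p under 0.05), where 0.0433% of all genes passed and 1037 of 11548 had an unadjusted p under 0.05. The median of the members was -0.01, with 17 positive and 18 negative, against 0.01 over all genes. For 30 of the 35 the 95% interval of the change lay within 1.5-fold either way. The intervals of POLR1A, RRP12, RCL1, NOB1 and CAD reached past 1.5-fold on at least 1 side.

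MYC went from 1680 to 1246 with doxycycline in Z-138 NIKsh#1 and from 1130.3 to 1329 in NIKsh#2. In Maver-1 it went from 1150.0 to 1017 in the NIKsh#1 culture and from 1239 to 1000.4 in that of NIKsh#2. It was thus lower in 3 of 4 NIKsh cultures, by -0.43, -0.18 and -0.31 on the log2 scale, and higher in Z-138 NIKsh#2 by 0.23. With the control hairpin, Z-138 went from 1977 to 2642 and Maver-1 from 1158 to 940.0, so the NTC change in Maver-1 (-0.30) lay within the range of the hairpin changes of that line. The fitted change in the NIKsh cultures was -0.17 ± 0.13 with a 95% interval of -0.46 to 0.12 (limma, adjusted p = 0.78). MAP3K14, the target, had changes of -0.68, -0.08, -0.44 and -0.49 in the same 4 cultures and did not pass either (-0.42 ± 0.18, limma, adjusted p = 0.53).

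In all 4 NIKsh cultures 5 of 35 members kept 1 sign (14.3%), against 18.2% of all genes tested. NCL, NPM1 and NOP58, a core box C/D protein, were positive in all 4, with fitted changes of 0.09, 0.07 and 0.07, and had 0.28, 0.22 and 0.345 in Z-138 NTC. NHP2, a core box H/ACA protein, and NOB1, the nuclease that makes the final cut of the small subunit RNA, were negative in all 4. NOB1 had the most negative change of the members, at -0.61, -0.03, -0.20 and -0.46 in Z-138 NIKsh#1, NIKsh#2, Maver-1 NIKsh#1 and NIKsh#2 (fitted -0.32 ± 0.16, limma, adjusted p = 0.62). With the control hairpin NOB1 had -0.12 in Maver-1 and 0.79 in Z-138.

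CAD, the enzyme of the first steps of pyrimidine synthesis, had changes on opposite sides of 0 in the hairpin cultures. The signal of Z-138 NIKsh#1 went from 349 to 212, and that of Maver-1 NIKsh#2 from 418 to 226. In the other hairpin cultures it went from 348 to 392.5 (Z-138 NIKsh#2) and from 378 to 427.5 (Maver-1 NIKsh#1). The cultures split across hairpin and line alike, and the fitted change was -0.31 ± 0.22 (limma, adjusted p = 0.76). Across the 35 members the changes of Z-138 NIKsh#1 and Maver-1 NIKsh#2, which share no array, had a Pearson r of 0.66 (rho 0.59) against 0.26 over all genes tested, and 25 of 35 had the same sign. NOB1 (-0.61 and -0.46), RRS1 (-0.33 and -0.46), BYSL (-0.33 and -0.49) and MYC (-0.43 and -0.31) were lower in both. The same hairpin gave r of -0.14 between lines for NIKsh#1 (0.17 over all genes) and -0.31 for NIKsh#2 (0.01 over all genes). Of all pairs of NIKsh cultures, Z-138 NIKsh#1 with Maver-1 NIKsh#2 had the highest r across the members. Genes are not independent replicates in any of these correlations.

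**Figure D3:**
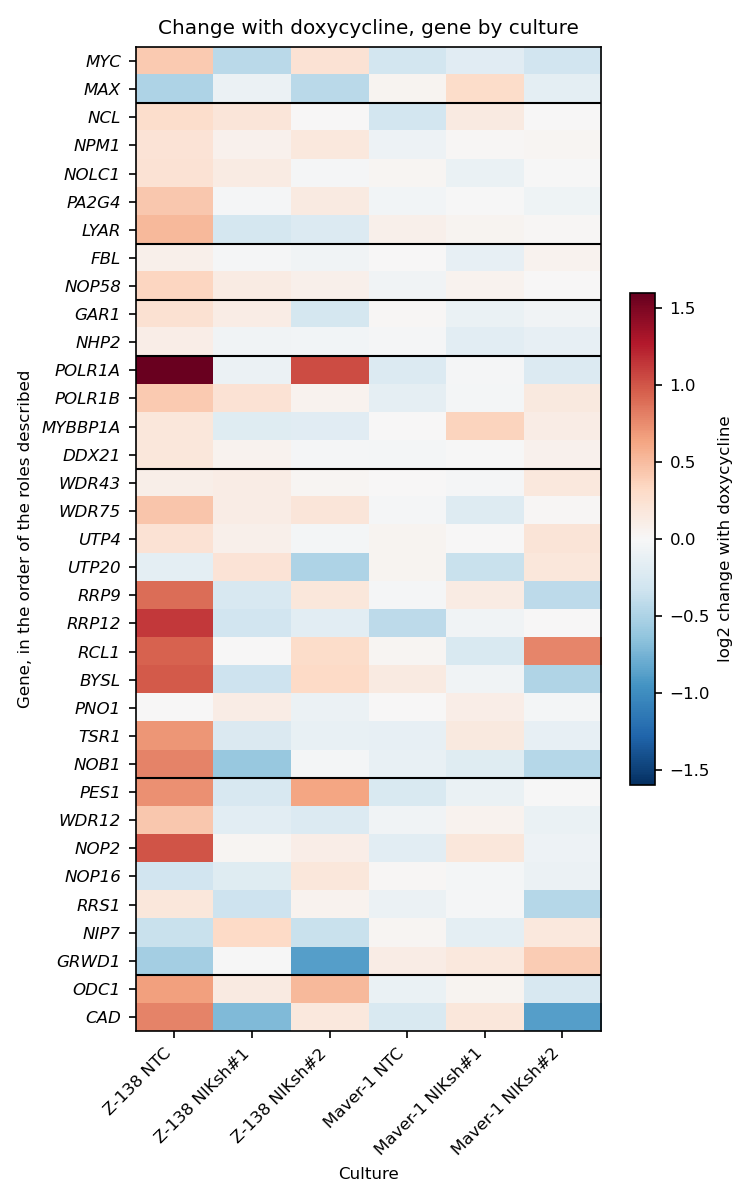
Log2 change with doxycycline of each of the 35 members (rows, in the order of their roles, with lines between roles) in each of the 6 cultures (columns). The column of Z-138 NTC is mostly red, with POLR1A at 1.58 and RRP12 at 1.13, the Maver-1 NTC column is pale, and CAD is blue in Z-138 NIKsh#1 (-0.71) and Maver-1 NIKsh#2 (-0.88).

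The control hairpin was compared in the same way. With doxycycline in the 2 NTC cultures no member passed (limma, 0 of 35, 1 at an unadjusted p under 0.05, against 387 of all genes), and 0% of all genes passed. For 14 of the 35 the 95% interval reached past 1.5-fold. The median of the members was 0.14 with 29 positive and 6 negative, against 0.03 over all genes. That median came from 1 culture. Z-138 NTC had 0.35 and Maver-1 NTC -0.02, while the 4 NIKsh cultures had medians between -0.02 and 0.01.

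**Figure D4:**
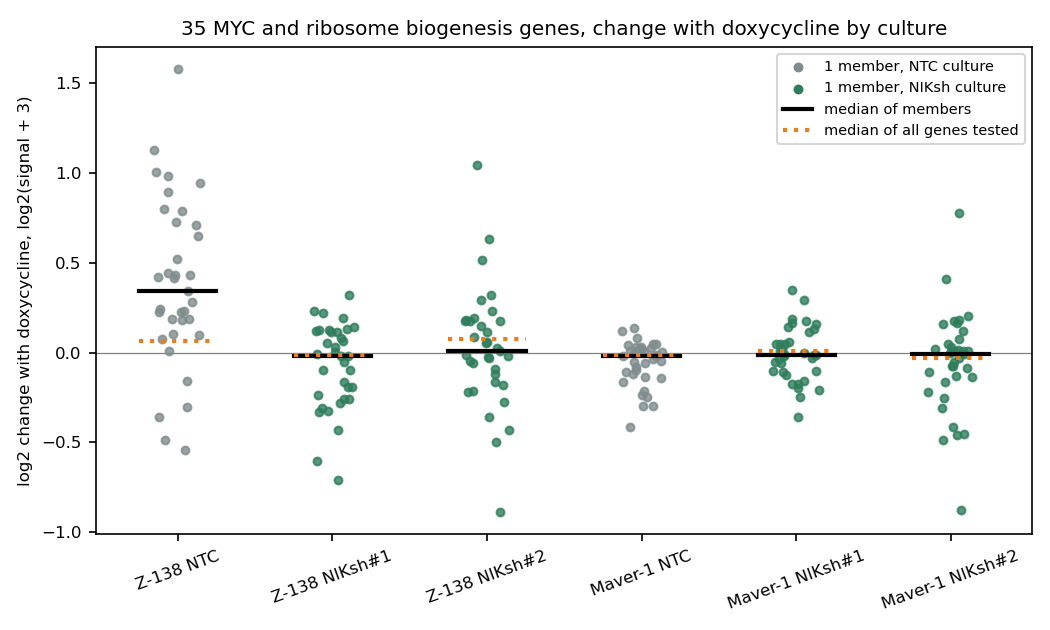
Log2 change with doxycycline of the 35 members, 1 point per gene, in each culture, with the median of the members (black) and of all genes tested (dotted orange). The Z-138 NTC culture has a member median of 0.35, and the other 5 lie within 0.02 of 0.

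In Z-138 NTC, 30 members were higher with doxycycline and 5 were lower, and 11 of 35 (31.4%) were more than 1.5-fold higher, where 13.9% of all genes were. This is 1 pair of arrays with no replicate. POLR1A went from 204 to 615, a log2 change of 1.58. RRP12, of the small subunit precursor, went from 135 to 298. NOP2, a methyltransferase of the large subunit RNA, went from 497 to 1002.7. BYSL changed by 0.98 (228 to 453), RCL1 changed by 0.94 (985 to 1899) and RRP9 by 0.89 (168 to 314.5). CAD, NOB1, PES1, TSR1 and ODC1 followed, with changes between 0.65 and 0.80, and MYC changed by 0.42. Small subunit factors had a median of 0.71 in this culture and large subunit factors 0.19. GRWD1 (-0.55), MAX (-0.49), NIP7 (-0.36), NOP16 (-0.30) and UTP20 (-0.16) were lower.

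The ACTB ratio of that culture was 2.33 without and 6.34 with doxycycline, and that of GAPDH 1.17 and 2.00. It was higher with doxycycline in the other Z-138 cultures too (2.86 and 4.62 in NIKsh#1, 2.92 and 5.09 in NIKsh#2) and not in Maver-1 NTC (6.88 and 4.43). Its part in the changes was not tested. The 34 further probe sets at or over the filter, in 19 members, had a median change of 0.00 in Z-138 NTC, with 16 positive and 17 negative, and 17 of 34 had the sign of the chosen probe set. For POLR1A the further probe sets changed by 0.63 and 0.09, and for TSR1 by 0.24, 0.67 and -0.61 beside 0.71.

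**Figure D5:**
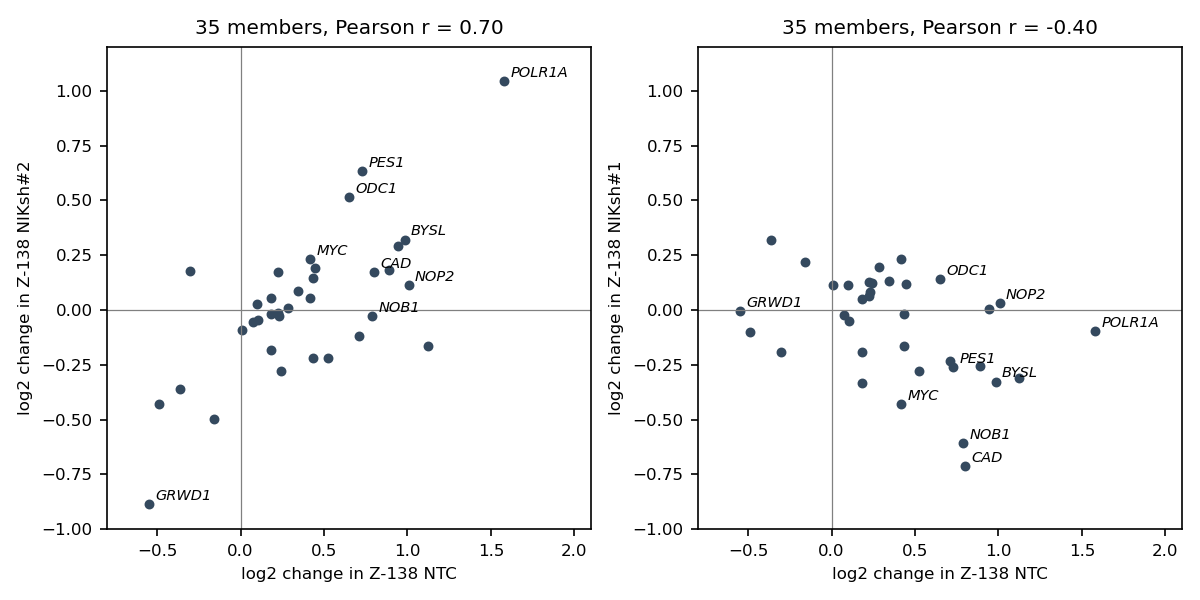
Log2 change with doxycycline of each member in Z-138 NTC (x axis) against Z-138 NIKsh#2 (left) and Z-138 NIKsh#1 (right), with Pearson r across the 35 genes. Genes such as POLR1A, PES1 and ODC1 lie up in both cultures on the left (r = 0.70), and the cloud slopes down on the right (r = -0.40).

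Across the members, which share 1 line and 1 array type here, the changes of Z-138 NIKsh#2 and Z-138 NTC had r = 0.70 (rho 0.57) across 35 members, against 0.28 over all genes, while NIKsh#1 and NTC had r = -0.40 (rho -0.39) against -0.06. POLR1A went from 237 to 492 in NIKsh#2 (1.05), PES1 from 279 to 434 (0.63) and ODC1 from 1840.2 to 2630 (0.51). The rise of POLR1A was seen only by its brightest probe set, and its further probe sets changed by -0.04 and -0.12 in that culture. GRWD1 went from 732 to 395 (-0.89), and was lower in NTC too. NIKsh#2 was the Z-138 hairpin culture with a MAP3K14 change near 0, and it and NTC had the largest gains of both the ACTB and the GAPDH ratio, whose part was not tested.

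Subtracting the control response gave a difference that rested on Z-138 NTC. The NIKsh response minus the NTC response passed for no member (limma, 0 of 35, 3 at an unadjusted p under 0.05, against 627 of all genes), and 0% of all genes passed. The median of the members was -0.16, with 27 of 35 negative, against -0.03 over all genes. Without Z-138 NTC it was 0.015. BYSL (-0.70 ± 0.30), NOB1 (-0.66 ± 0.28) and LYAR, a nucleolar zinc finger protein (-0.41 ± 0.18), had an unadjusted p under 0.05 (limma, adjusted p = 0.88 each).

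Within Z-138 alone, the hairpin response minus the control response was fitted after the array had been seen to stand apart. It had a member median of -0.32, with 29 of 35 negative, against a median of -0.05 over all genes. At an unadjusted p under 0.05 there were 10 of 35 members (limma), against 1717 of all genes (14.87%). After adjustment 0 of 35 members passed, where 0.589% of all genes passed. RRP12 (-1.36 ± 0.34), NOP2 (-0.94 ± 0.24) and LYAR (-0.77 ± 0.20) had the smallest p (limma, adjusted p = 0.12 each). Without Z-138 NIKsh#2, 10 members passed as lower, MYC (-0.85), POLR1A (-1.68), CAD (-1.51) and NOB1 (-1.40) among them (limma), in a fit with 1 array per condition in each Z-138 arm where 1110 of all genes passed. The spread in that fit came from Maver-1 NIKsh#1 and NIKsh#2 alone, and the Z-138 arms are assumed to vary like them. Over all genes the changes of those Maver-1 cultures had an SD of 0.30 and 0.35. That of Z-138 NTC was 0.54 and that of Z-138 NIKsh#1 was 0.46.

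By line, 27 of 35 members had a 95% interval within 1.5-fold in each of Z-138 and Maver-1. In Z-138 NIKsh 0 of 35 members passed (limma), against 2.14% of all genes. At an unadjusted p under 0.05 there were 2 of 35 members (limma), against 1868 of all genes (16.18%). NPM1 (0.12 ± 0.05, limma, adjusted p = 0.25) and ODC1 (0.33 ± 0.11, limma, adjusted p = 0.17) had the smallest p. ODC1 went from 2195 to 2423 in NIKsh#1 and from 1840.2 to 2630 in NIKsh#2, and from 2057 to 3229 in Z-138 NTC, so the control change was larger than both. Leaving out Z-138 NIKsh#1 left the single culture NIKsh#2, with POLR1A at 1.05 by its brightest probe set, ODC1 at 0.51 and GRWD1 at -0.89. The spread in that fit came from Maver-1 NIKsh#1 and NIKsh#2 alone, and Z-138 NIKsh#2 is assumed to vary like them. Over all genes the changes of those Maver-1 cultures had an SD of 0.30 and 0.35, against 0.51 in Z-138 NIKsh#2.

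In Maver-1 NIKsh 0 of 35 passed (limma, 0 at an unadjusted p under 0.05, against 459 of all genes), as did 0% of all genes. RCL1 in Maver-1 NIKsh#2 went from 197 to 339 and in NIKsh#1 from 379 to 319.5. The untreated NIKsh#2 value was the lowest of the 6 Maver-1 arrays. The difference between the lines in hairpin response passed for 0 of 35 members (limma) and for 0.121% of all genes. At an unadjusted p under 0.05 there were 3 of 35 members (limma), against 992 of all genes (8.59%). GRWD1 (-0.73 ± 0.30), ODC1 (0.43 ± 0.15) and MYBBP1A (-0.42 ± 0.16) had the smallest p (limma, adjusted p = 0.55, 0.48 and 0.53). A difference in MYC response was not detected, at 0.14 with a 95% interval of -0.32 to 0.61.

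The hairpin and control cultures were last compared without doxycycline. The untreated NIKsh minus NTC difference passed for 0 of 35 members (limma, 2 at an unadjusted p under 0.05, against 552 of all genes) and for 0% of all genes, and for 34 of 35 its 95% interval lay within 1.5-fold. RRS1 (-0.21 ± 0.09) and PES1 (-0.25 ± 0.11) had the smallest p (limma, adjusted p = 0.99 each). MYC had -0.24 ± 0.15.

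Other genes of the same pathways, from 6 lists that do not overlap the members, also differed between the lines in both directions. Of 41 other small subunit factors 12 were higher in Z-138 and 7 lower, and of 41 other large subunit factors 13 were higher and 7 lower. The RNA polymerase I and III machinery had 9 higher and 9 lower of 32. Other MYC network genes had 3 and 3 of 14, nucleotide, polyamine and one-carbon enzymes 7 and 9 of 24, and further MYC targets of translation and folding 5 and 4 of 24. The shares passing ran from 37.5% to 66.7%, where 60.2% of all genes passed.

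In the MYC network outside MYC and MAX, the paralogue MYCL had 50.9, 66.2 and 50.9 in untreated Z-138. Maver-1 had 11.4, 7.7 and 6.4, all below the filter of 12.55, so it passed the filter through Z-138 alone and no size is given for its difference. CIP2A, which protects MYC protein from dephosphorylation, had 578.4 ± 32.7 in Z-138 and 235.8 ± 30.1 in Maver-1 (SD, n = 3 each; difference 1.29 ± 0.12). MNT, a repressor that pairs with MAX, was higher in Z-138 (0.51 ± 0.13), and the helicase RUVBL1 lower (-0.63 ± 0.09).

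In the polymerase list, BRF1, a subunit of the RNA polymerase III initiation factor, had 12.4, 17.3 and 17.5 in Z-138, near the filter, and 148, 158 and 164 in Maver-1, a difference of -3.10 ± 0.18 (limma, adjusted p = 9.78e-09). TAF1D, of the RNA polymerase I selectivity factor, was lower in Z-138 (-1.99 ± 0.11). POLR3D (1.35 ± 0.11) and POLR1D (1.32 ± 0.08), polymerase subunits, were higher. Among subunit assembly factors, RRP7A was lower in Z-138 (51.7 ± 8.6 against 203.9 ± 13.7, difference -1.93 ± 0.16). DCAF13 (-0.83), IMP3 (-0.75) and NOC2L (-0.72) were lower too. EMG1, WDR18, DDX54 and PELP1 were higher, by 1.01, 1.38, 1.37 and 0.82. WDR18 and PELP1 belong to 1 complex of large subunit maturation. Of the nucleotide enzymes SHMT1 (1.06) was higher and IMPDH1 (-1.03) lower, and TERT, the telomerase subunit, was lower (-1.40, limma, adjusted p = 2.47e-06).

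With doxycycline in the 4 NIKsh cultures no gene of the 6 lists passed (limma), where 0.0433% of all genes did. In Z-138 NIKsh BCCIP, listed with the large subunit factors, was the 1 gene that passed, at -0.665 ± 0.135 (limma, adjusted p = 0.0438). MAF1, the repressor of RNA polymerase III, had the smallest p in its list for the NIKsh minus NTC difference (-1.12 ± 0.35, limma, adjusted p = 0.88). In Z-138 NTC all 6 lists had medians above that of all genes (0.07), from 0.17 for nucleotide enzymes to 0.42 for small subunit factors, and in Maver-1 NTC all 6 were between -0.08 and -0.02.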

How the data were processed

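Each of the 12 arrays held 54675 probe sets of an Affymetrix chip. The deposited values are linear signal intensity made with MAS5, per the submitters' processing notes. Every array's mean without the lowest and highest 2% of probe sets was 150.02, so the deposited signals share 1 scale. Detection calls were not used here. RNA had been amplified before labelling, per the labels' protocols, which makes signal depend on RNA integrity. Of the probe sets, 41091 had 1 gene symbol, 1801 several and 11721 none in the annotation used. The brightest with 1 symbol stood for its gene, and genes whose mean signal was below 12.55, which is the middle value of the arrays' own medians, were not tested. Analysis used log2(signal + 3), which understates changes of dim genes, and limma 3.58.1 in R 4.3.3, with a variance trend and two-sided moderated tests, adjusted by Benjamini-Hochberg over 11548 genes at 0.05. Doxycycline models had culture as a block, since both arrays of a culture share line and hairpin, per the labels. Deviations of the paired arrays correlated across genes by -0.04 (Z-138) and 0.20 (Maver-1). Residual degrees of freedom were 4 for NIKsh and NTC effects, 2 for effects per line, 4 for untreated lines and 3 for untreated hairpins. P-values reflect how far these cultures vary, which may be technical, and the number of arrays limits the precision. The code was tested on simulated data. Tables and figures used Python 3.11.15, pandas 2.3.3 and matplotlib 3.10.9. All members could be named, MAP3K14, and of each pathway list up to 4 called genes with the largest line difference and 2 with the smallest p elsewhere. The members and lists were chosen with earlier results of these data known. Alternatives covered pseudocounts of 1 and 16, quantile normalization, median centring, other filters, the mean of all probe sets, no trend, array weights, the ACTB ratio as covariate, other blocks and leaving out each culture.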

Additional observations from a re-analysis of the deposited data

Results flagged for a closer look

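Of 36 genes checked in the 4 NIKsh cultures (the 35 members and MAP3K14), POLR1A had 1 culture far from the other 3. Its log2 change was 1.046 in Z-138 NIKsh#2, against -0.221 to -0.016 in the others, a gap of 0.838 of the whole range. Chance flags about 1 in 20 such groups. The same probe set changed by 1.58 in Z-138 NTC. The further probe sets of POLR1A changed by -0.04 and -0.12 in Z-138 NIKsh#2.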

How the results depend on the processing

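In all alternatives other than leaving out a culture, 0 members passed in the 8 doxycycline and untreated hairpin comparisons, including 0 with no replicate block, where the arrays of a culture are unpaired. Leaving out 1 culture at a time gave 0 to 3 members for Z-138 NIKsh (3 without Z-138 NIKsh#1, where 7.95% of all genes passed, and 1 without either Maver-1 NIKsh culture, where 4.62% and 4.54% did), 0 to 3 for the Z-138 minus Maver-1 NIKsh response (3 without Z-138 NIKsh#1, against 3.66% of all genes), 0 to 10 for the Z-138 NIKsh minus NTC response (10 without Z-138 NIKsh#2, against 9.61%), and 0 in the others. Between untreated lines 10 to 16 members passed, against 13, where 34.65% (ACTB covariate) to 63.03% (array weights) of all genes did: 13 with construct as a replicate block, 15 with quantile normalization, 16 with array weights, 14 with median centring (11 higher, 3 lower), 11 with the mean of all probe sets (8 higher, 3 lower), 13 with the mean of both arrays of a culture (9 higher, 4 lower, 9 shared with the main 13), and 11 to 15 without 1 culture. RCL1, TSR1, MYBBP1A and RRS1 passed in all 18 alternatives. RRP9 passed in all 17 that kept it, the highest adjusted p being 0.04875 (limma). MAX turned to 0.438 (adjusted p = 0.0071) with the mean of all probe sets, as 3 dim probe sets gave 0.54 to 1.12, and ODC1 to 0.236 (adjusted p = 0.022) with the mean of both arrays, which brings in its Z-138 doxycycline signals. The lines call of MYC was lost with no filter (limma, adjusted p = 0.070), the mean of probe sets (0.058), no trend (0.130) and the ACTB covariate (0.778). MYC has 1 probe set, so the mean of probe sets left its difference at 0.395 and moved only its standard error and adjusted p. Without a Z-138 NIKsh culture, the fits per line took their spread from the Maver-1 NIKsh cultures alone. The comparison within Z-138 was chosen after seeing the data. Dim probe sets, 12 arrays and single NTC arrays limit all of this.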
